A study of Homo sapiens with 16 samples.

Results

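The clustered histone genes were followed through all probes of the array whose symbol begins with HIST1, HIST2, HIST3 or HIST4, which are the older names of the human histone gene clusters. By this rule, 65 of the 20589 rows of the deposited table were members, for 64 symbols. The HIST1 cluster had 55 of them, HIST2 had 7, HIST3 had 3 and HIST4 had 0. The cells were MCF-10A, a nontransformed human breast epithelial cell line, grown in medium with insulin and epidermal growth factor. CP724,714, an inhibitor of the HER2 kinase, was added at 1 µM with a change of medium, and RNA was taken from parallel cultures every 3 hours up to 45 hours. The source and treatment labels give the 0 hour culture as untreated, although its title calls it treated like all others, and every later culture held the inhibitor. Each of the 16 time points had 1 Illumina Ref8v2 array, with no replicate and no untreated culture at a later time, so that the effects of the inhibitor, the fresh medium and the time in culture cannot be told apart.

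Histone genes encode the proteins around which DNA is wound. Pairs of H2A, H2B, H3 and H4 form the core of the nucleosome, and H1 binds the linker DNA between nucleosomes. The clustered genes are known as replication-dependent, because most of their expression falls in S phase, when new chromatin is assembled. Their mRNAs mostly end in a stem-loop in place of a poly(A) tail, although several of these genes also give polyadenylated transcripts. The labelling kit used for these arrays starts its copies from oligo(dT), which favours transcripts with a poly(A) tail. Its part in the values below was not tested. Because many genes of a class are similar in sequence, a probe may also capture the transcripts of another gene of its class. Probe sequences were not at hand, so this was not tested, and the symbols below are those of the file. HIST2H2AA and HIST2H4 each name a gene that is present in duplicate in the genome.

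Promoter sequences show what these genes have in common before transcription starts. In RefSeq (GRCh38.p14), 60 of the 65 probes matched 1 gene, 5 matched several, and 54 genes had an entry from which the 250 bases before the gene start were read. Windows of 4 of the genes with the values below are printed 5′ to 3′ on the strand of the gene, and were chosen to show a pair of genes that share their upstream region, genes with different courses, and a gene without the motifs. They are those of HIST2H2BE (chr1:149886683-149886932, minus strand), HIST1H2AC (chr6:26123922-26124171, plus strand), HIST1H2BH (chr6:26251364-26251613, plus strand) and HIST1H4H (chr6:26285535-26285784, minus strand). Capitals mark the octamer ATTTGCAT, the CCAAT box CCAAT and the TATA box TATAAA, each on either strand, and none of these overlap in the printed windows.
HIST2H2BE: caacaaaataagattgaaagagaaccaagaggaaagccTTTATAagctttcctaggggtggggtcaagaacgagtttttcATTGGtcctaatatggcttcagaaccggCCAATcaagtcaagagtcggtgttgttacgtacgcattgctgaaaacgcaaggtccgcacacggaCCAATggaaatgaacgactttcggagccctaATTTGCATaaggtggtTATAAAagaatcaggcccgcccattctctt
HIST1H2AC: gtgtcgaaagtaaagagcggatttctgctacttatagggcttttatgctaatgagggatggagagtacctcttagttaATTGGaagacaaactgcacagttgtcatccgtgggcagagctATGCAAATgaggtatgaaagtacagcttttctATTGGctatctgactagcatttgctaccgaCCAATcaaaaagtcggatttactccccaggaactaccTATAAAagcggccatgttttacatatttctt
HIST1H2BH: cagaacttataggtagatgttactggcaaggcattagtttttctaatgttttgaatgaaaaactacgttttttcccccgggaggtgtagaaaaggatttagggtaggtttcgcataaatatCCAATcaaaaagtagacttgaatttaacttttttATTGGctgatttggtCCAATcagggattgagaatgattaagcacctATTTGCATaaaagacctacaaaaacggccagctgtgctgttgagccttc
HIST1H4H: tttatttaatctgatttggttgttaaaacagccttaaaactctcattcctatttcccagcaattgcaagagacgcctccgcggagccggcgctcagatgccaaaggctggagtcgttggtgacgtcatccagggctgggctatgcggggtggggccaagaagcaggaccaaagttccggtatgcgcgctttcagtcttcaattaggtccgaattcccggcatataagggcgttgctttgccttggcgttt

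The octamer, a motif long known from H2B promoters, was in the window of 21 of the 54 genes (38.9%), compared with 1.66% of 27305 genes in the same table. It was in 11 of 15 H2A and 9 of 13 H2B windows, in 1 of 10 H3 windows, and in 0 of 6 H1 and 0 of 10 H4 windows. The H3 window was that of HIST1H3D, which is the same window as that of HIST1H2AD and so was counted in both classes. Many H2A and H2B genes lie head to head and share an upstream region, so these windows were not independent. Among head-to-head neighbours, 8 pairs of an H2A and an H2B gene had starts within 1000 bases of each other, and so did HIST1H3F and HIST1H2BH. CCAAT was in 47 of the 54 windows (87%), against 33% of all genes, and TATAAA in 35 (64.8%), against 11.1%. HIST1H4H had none of the 3 motifs in its window. Among the genes followed over time the octamer was in 11 of 21 windows, and among those left out in 10 of 33. These are matches of letters and were not tested for binding.

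Fewer of the histone probes were detected than of the array as a whole. A probe counted as detected on an array when its deposited detection p-value, which compares it with the negative control beads, was under 0.05. On at least 3 arrays, 26 of the 65 histone probes (40%) were detected, against 58.1% of all rows. On all 16 arrays 12 were detected (18.5%), against 41.9% of all rows. A further 11 were detected on 1 or 2 arrays, and 28 on no array. By class, 1 of 6 probes for H1, 7 of 16 for H2A, 10 of 19 for H2B, 4 of 12 for H3 and 4 of 12 for H4 were detected on at least 3 arrays, and these 26 were followed. HIST1H2BE was just inside this limit with 3 arrays, at a log2 intensity of 5.37 to 6.33. HIST1H2AB, HIST1H3C, HIST1H4D and HIST3H2BB were just outside it with 2 arrays each. HIST1H2BD was represented by 2 rows that disagreed. ILMN_17622 was detected on all 16 arrays and ILMN_29933 on 0, and HIST1H2BD below stands for ILMN_17622, whose deposited row combines several probes.

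**Figure D1:**
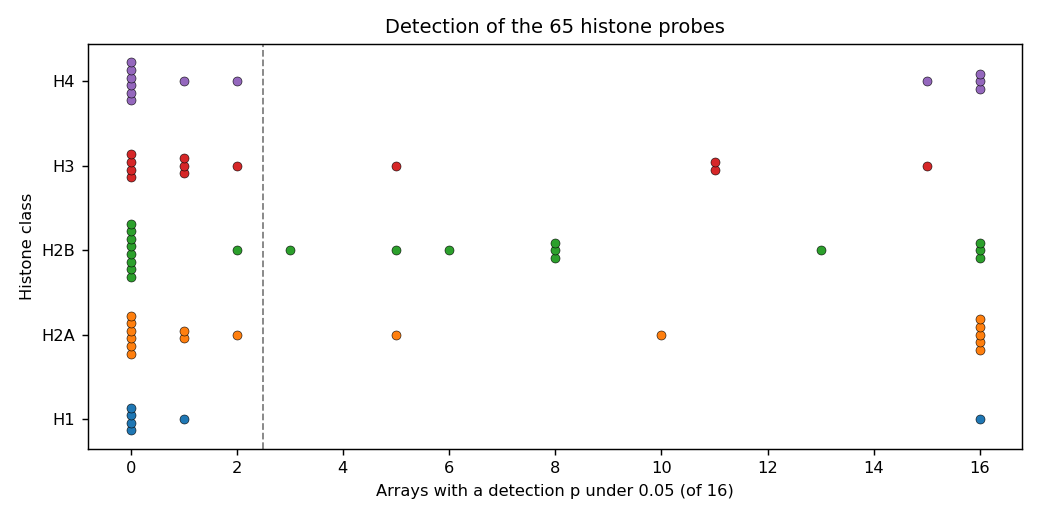
Each point is 1 of the 65 histone probes, placed by the number of arrays (of 16) on which its detection p was under 0.05 and by its histone class. The dashed line marks the limit of 3 arrays, to the right of which lie 26 probes, 12 of them at 16 arrays, while 28 sit at 0.

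The number of histone probes detected differed between arrays, from 15 to 25, while that of all rows lay between 10325 and 10889. It was 25, 23, 24 and 21 at 0, 3, 6 and 9 hours, 15 to 23 between 12 and 33 hours, and 23 or 24 from 36 hours on. No 2 arrays were identical, and their correlation over the tested probes lay between 0.96 and 0.996. As a check of the cell type, 12 of 13 mammary epithelial markers passed the same detection limit, KRT14 being the exception with 1 array, and 8 of 12 markers of blood, endothelium and fibroblasts were detected on no array. The deposited intensities of these 12 summed to between 2307 and 2465 on the arrays of 0 to 9 hours, 2467 and 2558 at 12 to 21 hours, 2321 and 2455 at 24 to 33 hours, and 2292 and 2576 at 36 to 45 hours. Of the 4 that were tested, CD14 rose at 12-21 hours against 0-9 hours, and again at 36-45 against 24-33 hours (1.01 and 1.02 on the log2 scale, adjusted p = 4.6e-05 and 1.6e-05 by limma), PECAM1 rose at the first of these (0.87, adjusted p = 0.0003), and their part in the histone values was not tested. A lower intensity can come from less transcript per cell or from fewer cells that hold it, and these cannot be told apart in the RNA of a whole culture.

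The commonest course among the 26 detected histone probes was a fall followed by a rise. Values below are log2 intensities after background correction and quantile normalization. The 12 probes with this course were lower at 12 to 21 hours than at 0 to 9 hours, and higher at 36 to 45 hours than at 24 to 33 hours. The time points were compared as 4 windows, of 0 to 9, 12 to 21, 24 to 33 and 36 to 45 hours. A window holds 4 time points that are not replicates of a condition, so its SD (n = 4 arrays) includes the change within it, and the p-values from limma measure differences against that spread alone. An adjusted p is the Benjamini-Hochberg value over all 11957 tested probes, and a call is an adjusted p under 0.05. The background given beside a count is the share of all tested probes with the same call.

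By a curve over all 16 time points (limma, natural cubic spline), 20 of the 26 probes depended on time, against 54.6% of all tested probes. At 12 to 21 hours 14 were lower than at 0 to 9 hours (background 14.4%) and 1 was higher (background 15.1%). In 4 of these 14 (HIST1H2AE, HIST1H2BE, HIST1H2BG and HIST1H2BJ) the second window was not above background on any array. The median change of the 26 was -0.49, with 0 over all tested probes. From 12 to 21 hours to 24 to 33 hours 0 rose (background 0%) and 0 fell (background 0.0251%). At an unadjusted p under 0.05 in that comparison, 1 probe was higher (HIST1H2BD) and 1 lower (HIST1H3G), against 2.58% and 2.32% of all tested probes. At 36 to 45 hours 15 were higher than at 24 to 33 hours (background 19.3%) and 2 were lower (background 18.7%). The median change there was 0.43, with 0 over all tested probes. HIST1H2AE, HIST1H2BG and HIST1H2BJ, among these 15, were not above background on any array of 24 to 33 hours. Both a fall into the second window and a rise into the last were found for 12 of the 26 probes, against 7.78% of all tested probes. The 12 include HIST1H2AE, HIST1H2BG and HIST1H2BJ. The opposite order, a rise and then a fall, was found for 1, HIST1H4C, against 8.25%.

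Some of the 26 probes entered through the windows in which they were bright, which favours a difference between windows. Of the 12 probes detected on all 16 arrays, 7 fell and then rose, against 9.87% of all probes detected that widely. All 4 arrays of 12 to 21 hours lay below all 4 of 0 to 9 hours for 10 of the 26 probes, against 11.4% of all tested probes. The 10 include HIST1H2BJ. Among the 12 detected on all 16 arrays this held for 7, against 13.7% of all probes detected that widely. All 4 arrays of 36 to 45 hours lay above all 4 of 24 to 33 hours for 15 of the 26, against 22.2% of all tested probes. The 15 include HIST1H2AE, HIST1H2BG and HIST1H2BJ. Among the 12 detected on all 16 arrays this held for 8, against 26.2% of all probes detected that widely.

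**Figure D2:**
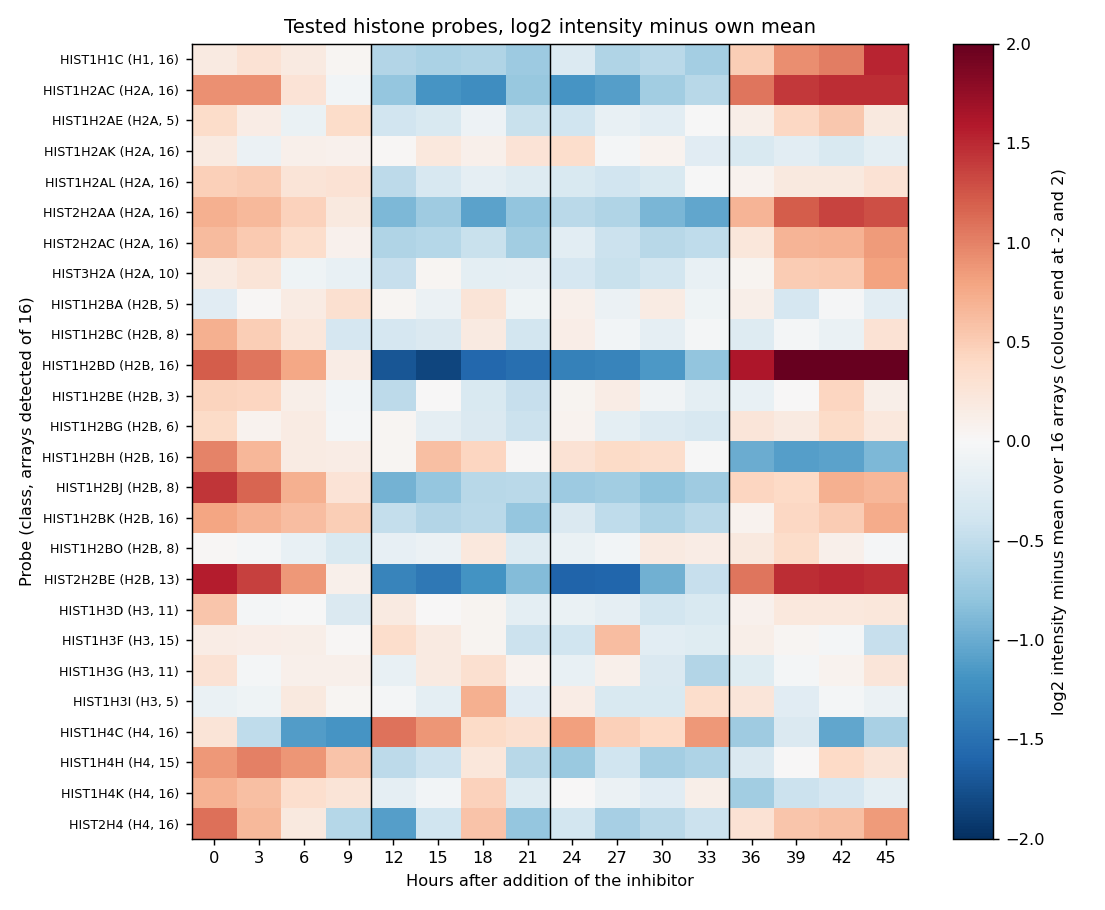
Rows are the 26 tested histone probes with their class and the number of arrays on which they were detected, and columns are the 16 time points (hours after addition of the inhibitor). Colour is the log2 intensity minus the probe's own mean, with all values past -2 or 2 drawn in the end colour. Most H1, H2A and H2B rows are red at the left, blue from 12 to 33 hours and red from 36 hours, and HIST1H4C runs the other way.

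Of the linker histones only HIST1H1C, one of the somatic H1 subtypes, was detected on at least 3 arrays. HIST1H1C read 10.31, 10.42, 10.32 and 10.17 at 0, 3, 6 and 9 hours, then 9.54, 9.50, 9.53 and 9.40 at 12 to 21 hours, 9.86, 9.53, 9.60 and 9.45 at 24 to 33 hours, and 10.63, 11.06, 11.16 and 11.66 at 36 to 45 hours. The last 4 arrays were above every earlier one, and all 4 of 12 to 21 hours were below all 4 of the start. HIST1H1C fell by 0.81 into the second window (SE 0.15, adjusted p = 0.00071) and rose by 1.52 into the last (SE 0.15, adjusted p = 9.9e-07). The last window was 1.77-fold above the first (log2 change 0.82, SE 0.15, adjusted p = 0.00051).

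Of the 7 H2A probes, 5 fell and 0 rose into the second window (background 14.4% and 15.1%). Into the last, 6 rose and 0 fell (background 19.3% and 18.7%). The 5 and the 6 both include HIST1H2AE, which passed the detection limit only through the first and last windows. H2A pairs with H2B in the nucleosome core. HIST1H2AC read 9.32, 9.32, 8.67 and 8.34 over the first window, 7.62, 7.22, 7.15 and 7.64 over the second, 7.22, 7.30, 7.71 and 7.85 over the next, and 9.47, 9.81, 9.88 and 9.88 over the last. The first 4 arrays already declined with time, and the last 4 were above all others. HIST1H2AC fell 2.84-fold (-1.50, SE 0.21, adjusted p = 6.4e-05) and rose 4.73-fold (2.24, SE 0.21, adjusted p = 5.7e-07). HIST2H2AA read 9.84, 9.77, 9.58 and 9.32, then 8.23, 8.42, 8.05 and 8.34, then 8.59, 8.52, 8.21 and 8.09, and at the end 9.81, 10.34, 10.48 and 10.41. Its 36 hour array lay just under the 0 hour array, so the first and last windows overlapped, and neither overlapped the middle of the series. HIST2H2AA fell by 1.37 (SE 0.16, adjusted p = 1e-05) and rose by 1.91 (SE 0.16, adjusted p = 2e-07).

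HIST2H2AC, whose values were chosen to be shown after they were seen because its gene lies head to head with HIST2H2BE, read 10.72, 10.60, 10.43 and 10.16 in the first window. It read 9.48, 9.51, 9.63 and 9.39 at 12 to 21 hours, 9.87, 9.65, 9.52 and 9.57 at 24 to 33 hours, and 10.30, 10.76, 10.77 and 10.93 at 36 to 45 hours. Both middle windows were below both outer ones. HIST2H2AC fell by 0.97 (SE 0.14, adjusted p = 6.2e-05) and rose by 1.04 (SE 0.14, adjusted p = 1.4e-05). HIST1H2AL fell by 0.71 and rose by 0.43 (adjusted p = 0.00017 and 0.0052), with a highest over lowest array of 2.05-fold. HIST1H2AE was detected on 2 arrays of the first window and 3 of the last, and was not above background on any array from 12 to 33 hours. Its call into the second window (adjusted p = 0.011) is given without a fold, since no bound above 1 could be set. It was at least 1.10-fold higher in the last window than in the one before (adjusted p = 0.0065). HIST3H2A read 6.52, 6.60, 6.26 and 6.20, then 5.88, 6.38, 6.14 and 6.17, then 6.00, 5.90, 5.97 and 6.20, and at the end 6.40, 6.85, 6.86 and 7.15. It was detected on 1 array in each of the middle windows, and rose by 0.80 into the last window (SE 0.15, adjusted p = 0.00053) without a call before it (-0.25, adjusted p = 0.24). HIST1H2AK, detected throughout, had no call in any window comparison, with changes of 0.09, -0.11 and -0.30 from window to window. Under median scaling and without normalization between arrays its last change was called.

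Of the 10 H2B probes, 6 fell and 0 rose into the second window (background 14.4% and 15.1%). Into the last, 5 rose and 1 fell (background 19.3% and 18.7%). The 6 include HIST1H2BE, HIST1H2BG and HIST1H2BJ, which were not above background on any array of the second window. The 5 include HIST1H2BG and HIST1H2BJ, which were not above background on any array of 24 to 33 hours. These passed the detection limit through the windows in which they were bright. The widest range among the 26 probes was that of HIST1H2BD, 17.8-fold between its highest and lowest array. HIST1H2BD read 11.09, 10.96, 10.66 and 10.04 at 0 to 9 hours, 8.18, 8.05, 8.32 and 8.38 at 12 to 21 hours, 8.54, 8.56, 8.74 and 9.10 at 24 to 33 hours, and 11.50, 11.92, 11.92 and 12.20 at 36 to 45 hours. The arrays of 24 to 33 hours lay above those of 12 to 21 hours without a call (0.50, adjusted p = 0.89), and no 2 windows of it overlapped. HIST1H2BD fell 5.48-fold (-2.45, SE 0.19, adjusted p = 3.5e-07) and rose 8.88-fold (3.15, SE 0.19, adjusted p = 1.1e-08). Its steps between neighbouring arrays were -1.87 from 9 to 12 hours and 2.40 from 33 to 36 hours.

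HIST2H2BE read 9.04, 8.84, 8.35 and 7.57 in the first window, 6.15, 6.04, 6.28 and 6.61 in the second, 5.87, 5.89, 6.51 and 7.01 in the next and 8.55, 8.96, 8.99 and 8.96 in the last. It was detected on 3 and 2 arrays of the middle windows, none of which came up to the outer ones. HIST2H2BE fell by 2.18 (SE 0.28, adjusted p = 3.3e-05) and rose by 2.54 (SE 0.28, adjusted p = 2.8e-06). HIST2H2BE and HIST2H2AC start 236 bases apart on opposite strands, and the window printed above for HIST2H2BE covers the whole region between them. HIST1H2BJ read 7.89, 7.63, 7.17 and 6.73, then 5.51 to 5.92 at 12 to 21 hours and 5.65 to 5.76 at 24 to 33 hours, and 6.89, 6.86, 7.17 and 7.12 at the end. It was not above background on any array of the middle windows and was detected on every array of the outer ones. HIST1H2BJ fell at least 2.30-fold (adjusted p = 1.3e-05) and rose at least 1.87-fold (adjusted p = 4e-05).

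HIST1H2BK, shown after its values were seen because it had this course and was detected on all 16 arrays, read 13.53, 13.44, 13.37 and 13.23 in the first window and 12.27, 12.16, 12.21 and 11.97 in the second. It read 12.46, 12.24, 12.12 and 12.20 at 24 to 33 hours and 12.82, 13.16, 13.26 and 13.49 at the end. HIST1H2BK fell by 1.24 (SE 0.11, adjusted p = 1.3e-06) and rose by 0.93 (SE 0.11, adjusted p = 7.7e-06). HIST1H2BG was detected on 2 arrays of the first window and 4 of the last, and was not above background at 12 to 33 hours. Its last window was at least 1.09-fold above the one before (adjusted p = 0.011). Its call into the second window (adjusted p = 0.038) has no bound above 1, and was lost without a filter on low intensity (adjusted p = 0.052) and when the array of 0, 3, 6, 15, 18 or 21 hours was left out (adjusted p from 0.055 to 0.12). HIST1H2BE, detected on 2 arrays of the first window and on 1 of the last, was not above background between them. Its call into the second window (adjusted p = 0.011) has no bound above 1 either, and it had no later call.

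HIST1H2BH went a different way. It read 8.53, 8.20, 7.70 and 7.68, then 7.57, 8.13, 7.96 and 7.55, then 7.82, 7.91, 7.89 and 7.53, and at the end 6.54, 6.43, 6.46 and 6.63. The last 4 arrays were below every earlier one, while the first 3 windows overlapped. HIST1H2BH fell by 1.27 into the last window (SE 0.18, adjusted p = 3.1e-05), and its change into the second was -0.22 (SE 0.18, adjusted p = 0.39). Its gene lies head to head with HIST1H3F, which had no call (-0.03 from 24 to 33 hours to the last window, SE 0.20, adjusted p = 0.94). The HIST1H2BH window printed above holds an octamer and CCAAT boxes, as do those of HIST2H2BE and HIST1H2AC. HIST1H2BC, HIST1H2BA and HIST1H2BO, detected on 8, 5 and 8 arrays, had no window call. HIST1H2BC depended on time by the curve (adjusted p = 0.019).

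Among the 4 H3 probes, 0 depended on time by the curve (background 54.6%). H3 and H4 form the tetramer on which the nucleosome is built. HIST1H3D rose by 0.43 into the last window (SE 0.15, adjusted p = 0.027), with -0.04 into the second. This call was lost when the array of 30, 33, 39, 42 or 45 hours was left out (0.39 to 0.42, adjusted p from 0.056 to 0.073). HIST1H3F, HIST1H3G and HIST1H3I had no call, and their highest array was 2.11-fold, 1.88-fold and 2.03-fold above their lowest. These 3 and HIST1H3D were detected on 5 to 15 arrays and lay near the background.

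The 4 H4 probes differed from each other, with 2 that fell and 1 that rose into the second window (background 14.4% and 15.1%). Into the last, 2 rose and 1 fell (background 19.3% and 18.7%). HIST1H4C, shown after its values were seen because it moved in the opposite order, read 14.96, 14.20, 13.58 and 13.53 in the first window, 15.79, 15.59, 15.08 and 15.02 in the second, 15.53, 15.18, 15.10 and 15.57 in the next and 13.99, 14.41, 13.67 and 14.05 in the last. The 0 hour array was higher than the other 3 of its window, and all 8 arrays from 12 to 33 hours were above it. HIST1H4C rose 2.47-fold into the second window (1.30, SE 0.25, adjusted p = 0.00097) and fell 2.49-fold into the last (-1.32, SE 0.25, adjusted p = 0.00053). Its deposited intensity lay between 11300 and 54000. The step from 9 to 12 hours was 2.26 and that from 33 to 36 hours -1.57, at the same times as the steps of HIST1H2BD and in the opposite direction.

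HIST1H4H read 7.65, 7.79, 7.67 and 7.35, then 6.26, 6.37, 7.01 and 6.22, then 6.03, 6.38, 6.10 and 6.17, and at the end 6.49, 6.78, 7.18 and 7.03. The first 4 arrays were above all others, and the last 4 were above those of 24 to 33 hours. HIST1H4H fell by 1.15 (SE 0.18, adjusted p = 0.00017) and rose by 0.70 (SE 0.18, adjusted p = 0.005). HIST1H4K read 9.66, 9.56, 9.30 and 9.22, then 8.78, 8.91, 9.42 and 8.70, then 8.97, 8.85, 8.73 and 9.08, and at the end 8.26, 8.53, 8.63 and 8.77. It was highest at the start and lowest at 36 hours. HIST1H4K fell by 0.48 into the second window (SE 0.16, adjusted p = 0.027), a call that was lost under median scaling (-0.32, adjusted p = 0.12), without normalization between arrays (-0.38, adjusted p = 0.069) and when the array of 0, 3, 12, 15 or 21 hours was left out. HIST2H4 rose by 1.07 into the last window (SE 0.32, adjusted p = 0.013), with a change of -0.77 into the second (SE 0.32, adjusted p = 0.079).

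**Figure D3:**
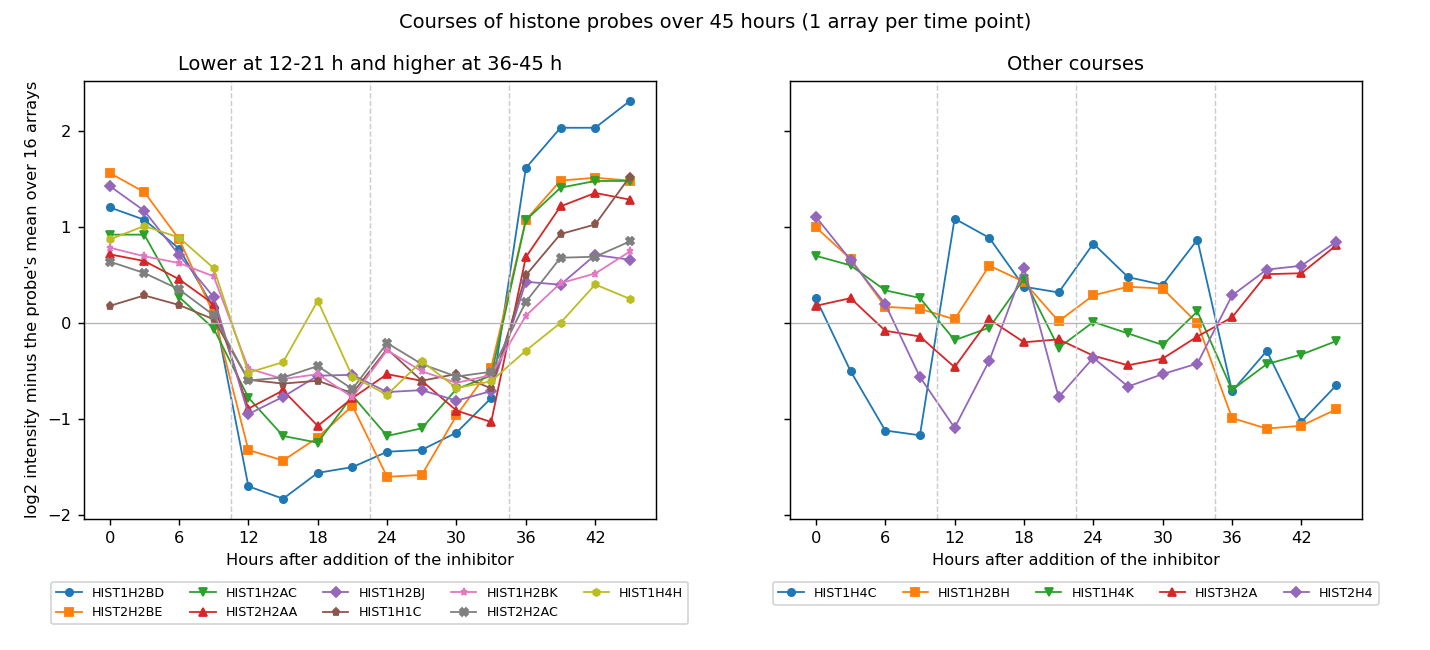
The log2 intensity of each probe minus its mean over the 16 arrays (y axis) is plotted against hours after addition of the inhibitor (x axis), with 1 array per point and dashed lines between the 4 windows. The 9 probes on the left drop between 9 and 12 hours and are higher from 36 hours on than at 24 to 33 hours. On the right HIST1H4C steps up at 12 hours and down at 36 hours, HIST1H2BH is low only in the last window, and HIST2H4 stands out at 18 hours.

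The largest steps between neighbouring arrays often fell at the borders of the windows. Of the 12 probes that fell and then rose, 11 had their largest fall from 9 to 12 hours, and 9 (75%) had their largest rise from 33 to 36 hours. Over all tested probes 16.2% had their largest fall at the first of these steps and 14.6% their largest rise at the second. Among all 930 probes that fell and then rose these shares were 54.5% and 70.9%, so the share for the rise was near that of all probes with this course. Among all 26 tested histone probes they were 46.2% and 38.5%. HIST1H2BG was the exception to the fall, with 0.06 from 9 to 12 hours, and HIST1H2AE, HIST1H2AL and HIST1H4H were those to the rise, with 0.12, 0.07 and 0.31 from 33 to 36 hours. Each step rests on 1 array on either side, and the labels and headers name no chip or other batch that could be set beside it.

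The end of the series was also compared with its start, in a comparison that shares its arrays with those above. At 36 to 45 hours 5 of the 26 probes were higher than at 0 to 9 hours (background 16.2%) and 3 were lower (background 15%), and the median of the 26 was -0.04, with -0.02 over all tested probes. The higher ones were HIST1H2BD (1.20, SE 0.19, adjusted p = 0.00016), HIST1H2AC (0.85, SE 0.21, adjusted p = 0.0052), HIST1H1C, HIST2H2AA (0.63, SE 0.16, adjusted p = 0.0054) and HIST3H2A (0.42, SE 0.15, adjusted p = 0.045). The lower ones were HIST1H2BH (-1.51, SE 0.18, adjusted p = 9.1e-06), HIST1H4K (-0.88, SE 0.16, adjusted p = 0.00035) and HIST1H4H (-0.74, SE 0.18, adjusted p = 0.0043). When the step between the middle windows was left out of the sum, 1 of the 5 higher calls was kept, HIST1H1C, against 7.26% of all tested probes. The changes of the others were then 0.70 for HIST1H2BD, 0.74 for HIST1H2AC, 0.54 for HIST2H2AA and 0.55 for HIST3H2A (adjusted p from 0.10 to 0.12). Of the lower calls, that of HIST1H4H was then lost (-0.45, adjusted p = 0.27). Without the array of 9 hours 5 probes were lower in place of 3, with HIST1H2BC and HIST1H2BJ added (HIST1H2BJ at -0.55, adjusted p = 0.013, against -0.34, SE 0.19, adjusted p = 0.17 with that array). HIST2H2BE had no call (0.41, SE 0.28, adjusted p = 0.29).

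A rise at a single time point, 18 hours, was seen in 7 of the 26 probes, which lay over 0.3 above the mean of the arrays before and after, against 7.95% of all tested probes. This pattern was chosen after the values were seen, it rests on 1 array, and it has no test. HIST2H4 was 1.16 above that mean, with 7.04 at 15 hours, 8.01 at 18 hours and 6.66 at 21 hours. HIST1H3I was 0.92 above it, HIST1H4H 0.72, HIST1H4K 0.61, HIST1H2BC 0.50, HIST1H2BO 0.39 and HIST1H2BA 0.36. HIST1H3I, HIST1H2BC, HIST1H2BO and HIST1H2BA lay near the background, each detected on 1 array of 12 to 21 hours. Of the 12 probes detected on all 16 arrays, 2 lay over 0.3 above (HIST2H4 and HIST1H4K), against 6.44% of all probes detected that widely. HIST2H2AA was 0.33 below the mean of its 15 and 21 hour arrays, the only one of the 26 to lie that far below (background 8.63%). Without background correction 4 probes lay over 0.3 above, against 1.38% of all tested probes.

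Genes of S phase, of histone chaperones and of histone mRNA processing mostly moved in the other direction. These and the histone genes outside the clusters are given by their main probe, the brightest of each gene. The lists were chosen with results of these data known. Of 25 tested genes of S phase, the DNA synthesis phase of the cell cycle, 19 rose and 1 fell into the second window (background 15.1% and 14.4%). Into the last, 24 of these S phase genes fell and 1 rose (background 18.7% and 19.3%). Their medians were 0.68 and -1.32, with 0 over all tested probes in both. The exception, both times, was POLA, the catalytic subunit of DNA polymerase alpha (-0.62 and then 0.51). FEN1, a flap endonuclease of lagging strand synthesis, changed by 0.34 (adjusted p = 0.13) and fell by 1.90 (adjusted p = 3e-07). CDC25A, a phosphatase that activates cyclin-dependent kinases, fell by 1.85 into the last window (adjusted p = 0.00011), and TK1, thymidine kinase, fell by 1.41 (adjusted p = 7.2e-06). The changes of CDC25A and TK1 into the second window, 0.62 and 0.17, had no call (adjusted p = 0.14 and 0.51).

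The list of 17 tested genes of histone chaperones, which carry histones to DNA, also held partners such as HAT1 and IPO4. Of these 17, 10 rose and 0 fell into the second window (background 15.1% and 14.4%). Into the last, 0 rose and 11 fell (background 19.3% and 18.7%), with HAT1 and IPO4 counted in the 10 and the 11. The medians were 0.50 and -0.43. ASF1B, an H3-H4 chaperone, fell by 1.69 (adjusted p = 1e-05) into the last window, and its change into the second was 0.57 (adjusted p = 0.056). CHAF1B and CHAF1A, subunits of chromatin assembly factor 1, rose by 0.62 and 0.91 and then fell by 1.18 and 1.27 (adjusted p = 0.0014, 0.0088, 1.8e-06 and 0.00045). Of 12 tested genes for the processing of histone mRNA, 7 rose and 0 fell into the second window (background 15.1% and 14.4%). Into the last, 0 rose and 8 fell (background 19.3% and 18.7%), and the medians were 0.34 and -0.37. SLBP, which binds the stem-loop of histone mRNA, changed by 0.25 (adjusted p = 0.25) and then fell by 0.71 (adjusted p = 0.0015). LSM10, a protein of the U7 particle that trims histone mRNA, fell by 0.66 into the last window (adjusted p = 0.00053). SYMPK, a scaffold of the cleavage complex, changed by -0.03 (adjusted p = 0.90) there. Into the second window LSM10 and SYMPK changed by 0.06 and 0.33 without a call (adjusted p = 0.75 and 0.088).

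Histone genes outside the clusters give polyadenylated mRNAs in most cases. Of the 12 tested, 2 rose and 1 fell into the second window (background 15.1% and 14.4%). Into the last, 2 rose and 5 fell (background 19.3% and 18.7%), and the medians were 0.20 and -0.27. Of these counts only the 5 that fell into the last window lay well above the background. H2AFV, H2AFX and CENPA, the centromeric H3 variant, fell by 1.05, 1.11 and 1.35 into the last window (adjusted p = 0.0011, 0.00042 and 7.4e-05). H1FX, a linker histone gene, fell by 0.63 and rose by 0.58 (adjusted p = 0.0079 and 0.0096), and was the only one of these genes with the order of the 12 clustered probes that fell and then rose.

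**Figure D4:**
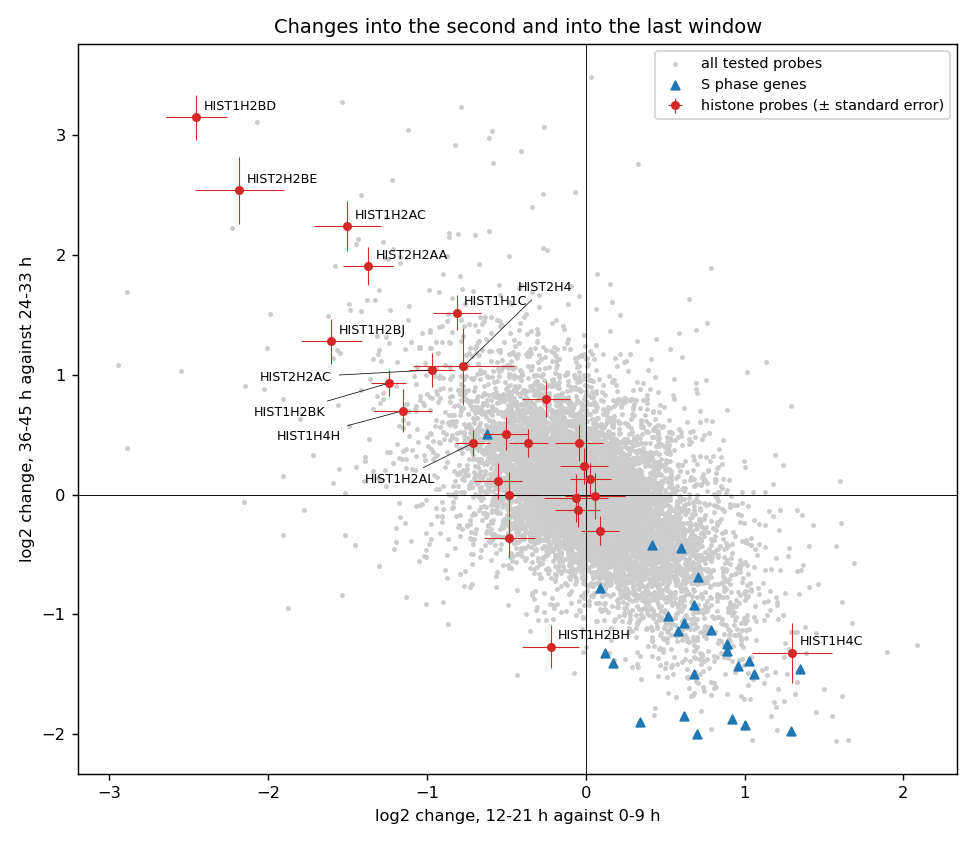
The log2 change from 0-9 to 12-21 hours (x axis) is plotted against that from 24-33 to 36-45 hours (y axis) for all 11957 tested probes (grey), the 25 S phase genes (blue) and the 26 histone probes (red, bars are the SE). HIST1H2BD, HIST2H2BE, HIST1H2AC and HIST2H2AA lie at the upper left, and HIST1H4C lies at the lower right with most S phase genes.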

How the data were processed

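Biotinylated cRNA from 16 MCF-10A cultures was hybridized to Illumina human Ref8v2 arrays. The authors deposited, for each row and array, an intensity on a linear scale that had not been normalized, together with a detection p-value set against negative control beads. Quantile normalization is named in the paper's methods. The summary software and a background correction are not given in the sources used here. In 19092 rows the deposited detection p-values were whole multiples of 1 in 708 (within 0.001) on every array, as for single probes, and 1497 rows were combined.

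The negative control level (166 to 199, SD 35.4 to 44.0) was inferred from the single-probe rows. Intensities then went through normexp with an offset of 16, quantile normalization and a log2 transformation (limma 3.58.1, R 4.3.3). The offset compresses the changes of dim probes. Rows that passed detection, at a limit of 0.05, on 3 or more arrays were tested, 11957 in all. Time was fitted as a natural cubic spline (3 degrees of freedom) and as 4 windows of 4 arrays, each with 12 residual degrees of freedom, an intensity trend in the prior variance and Benjamini-Hochberg adjustment over all tested rows. The fits were run on simulated data with independent noise and a step into the last window only. Those data held no drift within a window and no link between neighbouring arrays, so they do not test the fits for either. Figures were drawn with matplotlib 3.10.9 in Python 3.11.15. "At least" folds set the dim window at the lowest detected single-probe intensity of each array, or at the probe's own value if higher.

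The members, gene lists and windows were chosen with earlier results of these data known. Values on every array were given for the 10 tested histone probes with the largest change between 36-45 and 0-9 hours among those past a test, and for others where stated. From each other list of histone and S phase genes, 3 genes were named by the same measure, and others where stated. Symbols are those of the file, which names no genome build, and coordinates are those of RefSeq for GRCh38.p14. Alternatives were other background corrections, offsets, scalings, filters, curves and windows, no intensity trend, and leaving out each array in turn. The small number of arrays limits the precision.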

Additional observations from a re-analysis of the deposited data

Results flagged for a closer look

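In 52 windows of 4 arrays, those of the 13 histone probes given with their values, 1 array lay far from the other 3 in 2 cases, by Dixon's ratio of the gap to the range (0.921 and 0.839). By chance about 1 in 20 such groups would show this. HIST2H2BE at 36 hours read 8.55, where the other 3 arrays of 36 to 45 hours read 8.96 to 8.99. HIST1H2BJ at 30 hours read 5.65, where the other 3 of 24 to 33 hours read 5.74 to 5.76, and it was not above background on any of these arrays.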

How the results depend on the processing

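Recomputed were 42 changes of the tested histone probes, which were all the window calls and the last against the first window for the 10 chosen by size, and each kept its direction wherever it was run. Apart from leaving out arrays, 368 of 383 values stayed on their side of the threshold, 14 lost the call and 1 gained it. With 1 array left out, 642 of 669 stayed, 26 lost it and 1 gained it. The lost calls were those of HIST3H2A and HIST1H2BD, HIST1H2AC, HIST2H2AA and HIST1H4H between the last and the first window, of HIST1H4K and HIST1H2BG into the second, and of HIST1H3D into the last. For HIST3H2A (0.42) these were many settings, among them no background correction (0.18, adjusted p = 0.057) and leaving out the array of 45 hours (0.31, adjusted p = 0.16). The call of HIST1H4H was lost for 0 and 3 against 42 and 45 hours (-0.61, adjusted p = 0.053).

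The count of time-dependent histone probes, 20, was 2 with a straight line in time and 12 of 12 with detection on all 16 arrays. That filter tests fewer probes, and gave 8 lower at 12 to 21 hours, 8 higher at 36 to 45 hours than in the window before, and 7 that fell and then rose. Without the step from 21 to 24 hours, in a sum with a larger SE, 1 probe was higher at the end than at the start. Median scaling and no normalization between arrays each gave 4 probes lower in the last window than in the one before, in place of 2, with HIST1H2AK and HIST1H4K added, and the cause was not tested. Median scaling moved the median of all tested probes by up to 0.09, and 6 in place of 2 histone genes outside the clusters rose into the second window. The count above its neighbours at 18 hours, 7, was 4 without background correction, an alternative chosen after seeing the data.

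With 1 array left out, the time-dependent count lay between 17 and 21. The count lower at 12 to 21 hours lay between 11 and 16, and that of higher at 36 to 45 hours than before between 14 and 15. At the end against the start, 4 to 6 were higher and 3 to 5 lower, and 11 to 13 fell and then rose. No paired analysis was possible because each time point has 1 array. The chip could not be used as a block, since no header names one. The offset and the background limit the changes of dim probes, and single arrays limit every step.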
